A study of Homo sapiens with 4 samples.

Results

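The genes described here are 10 genes grouped as airway secretory and antiprotease genes: TCN1, PI3, SLPI, WFDC2, WFDC21P, MUC1, MUC5AC, MUC5B, PRSS35 and SERPINB1. Of these, PRSS35 belongs to the serine protease family, and WFDC21P is annotated as a transcribed unitary pseudogene. The set was taken by gene name from the 58735 genes of the deposited expression table, and all 10 were found. The set was chosen by the measured FPKM of TCN1, PI3 and WFDC21P, which had been seen at lower levels in KO than in WT, so the values of its members in this contrast are given as a description, without a p-value. The RNA came from 2 libraries labelled KO and 2 labelled WT, all of the HFL1 line, which was established from fibroblasts of human fetal lung. The KO libraries are calumenin knockouts according to the series' design text, which names senescence and fibrosis signalling as the question. The labels give no other treatment, and they do not say how the knockout was made, whether it was 1 clone, or whether replicates were separate cultures. The spread behind every p-value is thus that between 2 libraries of a group, and it may be technical. The limma fit combines a gene's own spread with that of other genes at a similar level. A printed p-value or SE therefore does not rest on the gene's own libraries alone.

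Airway surfaces are covered by a gel of large secreted mucins, among which MUC5AC and MUC5B form the gel itself and MUC1 stays anchored in the cell membrane. The same secretions carry inhibitors that hold neutrophil serine proteases in check. PI3 (elafin) and SLPI are small secreted inhibitors built on the whey acidic protein (WAP) fold, and SERPINB1 is an intracellular inhibitor of the same proteases. TCN1 encodes haptocorrin, a vitamin B12 binder of secretions and neutrophil granules. These genes are usually studied in epithelium and leukocytes rather than in fibroblasts.

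Values are FPKM, reads scaled by gene length and by a factor for each library. The libraries held 16622382 to 17699349 reads in KO and 16173899 to 17715774 in WT. CALU, the targeted gene, stood at 6.59 and 5.95 FPKM in KO against 87.7 and 81.8 FPKM in WT. Of 12 fibroblast markers, 8 did not reach 1 FPKM in any library. Of these, COL1A2 and POSTN had 0 reads throughout, and DCN and FAP were at 0 in both KO libraries and at most 0.00871 FPKM in WT. The other 4 were tested, of which COL1A1 (3.04 and 3.16 FPKM in KO against 0.234 and 0.280 FPKM in WT, limma adjusted p = 0.0041) and FBLN1 (9.74 and 10.4 FPKM in KO against 5.62 and 6.93 FPKM in WT, adjusted p = 0.0381) rose, COL1A1 having reached 1 FPKM in KO alone. VIM, at 106 and 84.6 FPKM in KO and 76.5 and 46.8 FPKM in WT, made up most of the list's sum, which was 121 and 100.4 FPKM in KO against 84.4 and 56.3 FPKM in WT. Of 10 epithelial markers 8 were tested, of which CDH1, KRT8, KRT18 and KRT19 rose and CLDN4 and KRT15 fell in KO (limma). KRT8 stood at 731 and 926 FPKM in KO and 349 and 425 FPKM in WT, and CLDN4 at 0.947 and 0.973 FPKM in KO and 4.57 and 5.27 FPKM in WT. CLDN4 and KRT15 had reached 1 FPKM in WT alone. The summed level of that epithelial list was 1884 and 2252 FPKM in KO against 997 and 1136 FPKM in WT. KRT7, KRT8 and KRT18 made up most of it, and KRT7 was not called. EPCAM, at 2.04 and 2.04 FPKM in KO and 1.76 and 1.57 FPKM in WT, was not called either. ESRP1 and KRT5 stayed below 1 FPKM in every library. The labelled cell type thus lacked several of its defining markers, and the part of these epithelial transcripts in the results below was not tested. Of 8 markers of airway club and goblet cells 6 did not reach 1 FPKM in any library, with SCGB3A1 and CLCA1 at 0 reads in all 4 libraries and SCGB1A1 at 2 reads in all. The other 2 were AGR2, at 31.5 and 34.5 FPKM in KO and 16.8 and 25.004 FPKM in WT (adjusted p = 0.0766), and SPDEF, at 6.47 and 7.59 FPKM in KO and 2.89 and 4.97 FPKM in WT (adjusted p = 0.0737). Of 8 neutrophil markers, MPO and CTSG had 0 reads in every library, and the list summed to 3.93 and 4.89 FPKM in KO against 3.72 and 5.64 FPKM in WT. ELANE, PRTN3 and AZU1 stood between 1.25 and 1.84 FPKM in KO and between 0.475 and 0.958 FPKM in WT, and CAMP had 0 reads in both KO libraries against 22 and 42 in WT.

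A gene was tested if it reached 1 FPKM in at least 2 libraries, which 14100 genes did. Of the 10 members 9 were tested and WFDC2 was not. PI3, MUC5AC and PRSS35 passed this filter through the WT libraries alone, so they could pass only by being higher there. Of all 618 genes that passed through WT alone, 62.5% were called lower in KO, against 9.13% of the 12988 genes that reached 1 FPKM in both groups. Of the 494 that passed through KO alone, 52.0% were called higher and 0 lower, beside 11.2% called higher of those in both groups. Of the 9 tested members, 7 were past the threshold as lower in KO and 0 as higher, beside 11.1% of all tested genes called lower and 12.1% called higher (limma, Benjamini-Hochberg adjusted p under 0.05). With voom on recovered reads these member counts were 7 and 1. Both KO libraries lay below both WT libraries for 8 of the 9, and above for 1, beside 31.3% and 34.4% of all tested genes. Nothing is read from these counts, because the contrast itself was used to choose the set. In bulk RNA, fewer cells that express a gene cannot be told apart from less RNA per cell.

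**Figure D1:**
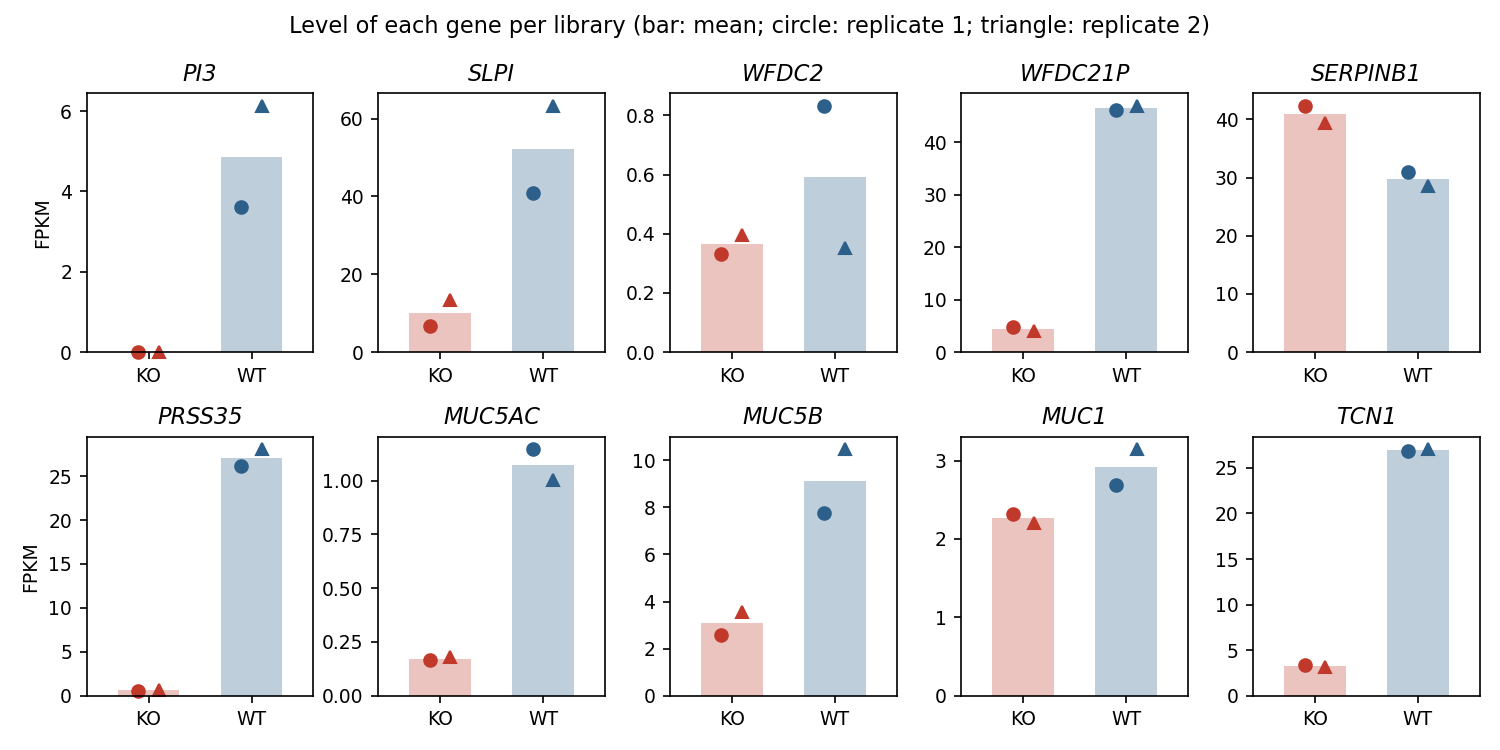
FPKM of the 10 genes in each library, KO left and WT right in every panel, with bars at the group mean, circles for replicate 1 and triangles for replicate 2; each panel has its own scale starting at 0. In 8 panels both KO points lie below both WT points, in the SERPINB1 panel they lie above, and in the WFDC2 panel the groups overlap.

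Among the secreted inhibitors with a WAP domain, PI3 and SLPI were lower in KO. PI3, which inhibits neutrophil elastase and proteinase 3, had 0 reads in both KO libraries, against 3.61 and 6.13 FPKM (38 and 58 reads) in WT. A floor of 3 reads per library corresponds to at most 0.317 FPKM for this short gene. Its level in KO was therefore at least 15.3-fold lower than the WT mean of 4.87 ± 1.79 FPKM (SD, n = 2). The WT libraries themselves differed in PI3, with replicate 2 the higher.

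SLPI, the secretory leukocyte peptidase inhibitor, stood at 6.61 and 13.4 FPKM in KO against 41.0 and 63.3 FPKM in WT. The groups did not overlap, but replicate 2 was the higher library within each of them. The mean was 10.01 ± 4.81 FPKM in KO and 52.1 ± 15.7 FPKM in WT (SD, n = 2 per group), 5.21-fold lower in KO. Without KO replicate 1 the fold was 3.89, and without KO replicate 2 it was 7.89. By mean FPKM, SLPI was the most abundant of the 10 genes in WT, though in WT replicate 1 WFDC21P was higher, at 46.2 FPKM. Among all tested genes the WT level of SLPI lay at percentile 95.9, against percentile 69.04 in KO.

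WFDC2 (HE4), a WAP-domain protein of airway and reproductive epithelium, was barely detected. It had 8 and 9 reads in KO (0.331 and 0.397 FPKM) and 21 and 8 reads in WT (0.832 and 0.353 FPKM). The groups overlapped, and a single WT library stood apart from the other three. Summed over libraries, the 17 reads in KO had a 95% exact Poisson interval of 9.90 to 27.2 and the 29 reads in WT one of 19.4 to 41.6, which cover counting error only. No difference was detectable at this depth.

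WFDC21P is a WAP-domain gene annotated as a transcribed unitary pseudogene, also known as the long noncoding RNA lnc-DC of dendritic cells. It stood at 4.73 and 4.11 FPKM in KO against 46.2 and 47.0 FPKM in WT. Replicates lay close together in both groups, with means of 4.42 ± 0.437 FPKM in KO and 46.6 ± 0.532 FPKM in WT (SD, n = 2 per group), 10.5-fold lower in KO. Its log2 change was -3.14 (SE 0.14), computed from log2(FPKM + 1), a scale on which changes at low levels appear smaller than they are. A noncoding gene, AC025048.4, overlaps it on the opposite strand with 9 and 11 reads in KO and 12 and 18 reads in WT, and the sources used here do not say whether counting used strand. Those reads are few beside the 91 and 74 reads in KO and 927 and 846 reads in WT assigned to WFDC21P.

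Of the 15 other WAP-domain genes listed, 0 were tested (by limma or by voom), and 8 had 0 reads in every library. The most abundant was WFIKKN1, a protease inhibitor that binds growth factors of the myostatin type, with 7 and 9 reads in KO and 70 and 48 reads in WT. Measurable WAP-domain transcripts in these libraries were therefore mostly those of SLPI, WFDC21P and, in WT, PI3.

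SERPINB1, the intracellular inhibitor of elastase, cathepsin G and proteinase 3, differed from the secreted inhibitors in direction. It stood at 42.3 and 39.3 FPKM in KO against 30.9 and 28.5 FPKM in WT. Both KO libraries lay above both WT libraries, with means of 40.8 ± 2.11 FPKM in KO and 29.7 ± 1.70 FPKM in WT (SD, n = 2 per group), a ratio of 1.37. The change of 0.45 (SE 0.14) on the log2(FPKM + 1) scale was not past the threshold. SERPINB1 ranked 3 among the 10 genes in WT, and it was the most abundant of them in KO.

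PRSS35, a secreted member of the serine protease family, had the largest fold difference of the members with reads in both groups; that of PI3, at 0 reads in KO, has only a bound. It stood at 0.585 and 0.675 FPKM (25 and 27 reads) in KO against 26.2 and 28.1 FPKM (1166 and 1122 reads) in WT. The libraries of each group lay close together and far from those of the other group. The mean was 0.630 ± 0.0639 FPKM in KO and 27.1 ± 1.32 FPKM in WT (SD, n = 2 per group), 43.0-fold lower in KO, with a log2 change of -4.11 (SE 0.13).

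TCN1, the vitamin B12 binder, stood at 3.31 and 3.12 FPKM in KO against 26.8 and 27.0 FPKM in WT. Replicates differed by less than 1 FPKM in each group, and the groups were far apart. The mean of 3.21 ± 0.138 FPKM in KO was 8.38-fold lower than the 26.9 ± 0.167 FPKM in WT (SD, n = 2 per group), with a log2 change of -2.73 (SE 0.13).

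The gel-forming mucins MUC5B and MUC5AC were lower in KO. MUC5B stood at 2.58 and 3.57 FPKM in KO against 7.74 and 10.5 FPKM in WT. The groups did not overlap, and replicate 2 was again the higher within each. Its mean was 3.07 ± 0.701 FPKM in KO and 9.10 ± 1.92 FPKM in WT (SD, n = 2 per group), 2.96-fold lower in KO. The gene is long, so these levels rest on 840 and 1088 reads in KO and 2629 and 3190 reads in WT.

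MUC5AC, the other gel-forming mucin of the airway surface, was low everywhere, at 0.167 and 0.178 FPKM in KO against 1.15 and 1.004 FPKM in WT. These values rest on 51 reads in each KO library and on 365 and 287 reads in WT. The mean was 0.173 ± 0.00813 FPKM in KO and 1.07 ± 0.101 FPKM in WT (SD, n = 2 per group), 6.23-fold lower in KO. The same difference was -0.82 (SE 0.18) on the log2(FPKM + 1) scale, because the added 1 exceeds the KO level. MUC5AC passed the filter through WT alone, a route on which 62.5% of genes were called lower. It was past the threshold with all 4 libraries. It was no longer past it with any 1 library left out, where the log2 change was -0.77 (without WT replicate 1), -0.87 (without WT replicate 2), -0.82 (without KO replicate 1) and -0.83 (without KO replicate 2). Both mucins hold long repeats, in which read counting is uncertain.

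MUC1, the membrane-anchored mucin, differed little. It stood at 2.32 and 2.20 FPKM in KO against 2.68 and 3.14 FPKM in WT. The groups did not overlap, but the gap between them was smaller than the difference between the WT libraries, and the log2 change of -0.26 (SE 0.14) was not past the threshold. Of the 14 other mucins listed only MUC13, a membrane mucin of the gut and airway, was tested. MUC13 rose to 42.3 and 34.1 FPKM in KO, against 21.5 and 22.7 FPKM in WT, 1.73-fold (limma adjusted p = 0.0263). Its call was lost without WT replicate 1 (adjusted p = 0.168), without WT replicate 2 (adjusted p = 0.125) and without KO replicate 1 (adjusted p = 0.056). Next in abundance was MUC20, at 0.374 ± 0.0413 FPKM in KO and 0.857 ± 0.0267 FPKM in WT (SD, n = 2 per group), below the level needed for the test.

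**Figure D2:**
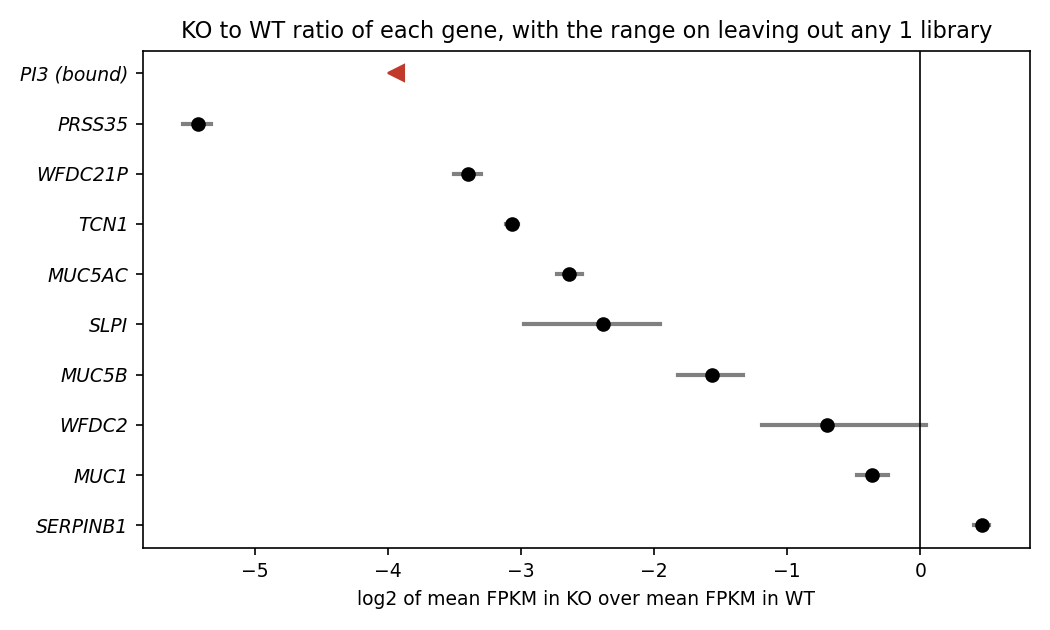
Log2 of the ratio of mean FPKM in KO over mean FPKM in WT (horizontal axis) for each gene, with grey lines spanning the values obtained on leaving out any 1 of the 4 libraries; for PI3, with 0 reads in KO, the arrow marks the bound of at least 15.3-fold lower. SLPI and WFDC2 have the widest spans, and only that of WFDC2 reaches across 0.

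The order of levels within each group changed with genotype. In KO, SERPINB1 stood first at 40.8 FPKM and SLPI second at 10.01 FPKM. They were followed by WFDC21P at 4.42, TCN1 at 3.21, MUC5B at 3.07, MUC1 at 2.26, PRSS35 at 0.630, WFDC2 at 0.364 and MUC5AC at 0.173 FPKM, with PI3 at 0 reads. In WT, SLPI was first at 52.1 FPKM, then WFDC21P at 46.6, SERPINB1 at 29.7, PRSS35 at 27.1, TCN1 at 26.9, MUC5B at 9.10, PI3 at 4.87, MUC1 at 2.91, MUC5AC at 1.07 and WFDC2 at 0.593 FPKM. Neighbours whose libraries overlapped, and whose order is therefore not fixed, were TCN1 with MUC5B in KO, and SLPI with WFDC21P and PRSS35 with TCN1 in WT.

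Sequence upstream of the start was at hand for 5 of the 10 members, TCN1, WFDC2, MUC1, PRSS35 and SERPINB1, in RefSeq (GRCh38.p14), and not for PI3, SLPI, WFDC21P, MUC5AC and MUC5B. In the 250 bases before each RefSeq start, 8 motifs were searched on both strands: AP-1 (TGANTCA), NF-kB (GGG and TTCC with 3 bases between them), C/EBP (TTGCNNAA), the TATA box (TATAAA), ETS (AGGAAG), KLF (GGGTGTG), FOX (TGTTTAC) and SOX (ACAAAGG). The stretches below are those of the 2 members with the largest log2 changes among these 5 and of SERPINB1, the member that stood higher in KO. They are written 5′ to 3′ on the gene's strand, capitals mark motif matches, and bases inside the gene span of the deposited table are left out. TCN1 lies on the minus strand at chr11:59866576-59866737, PRSS35 on the plus strand at chr6:83512284-83512533 and SERPINB1 on the minus strand at chr6:2842007-2842113.
TCN1: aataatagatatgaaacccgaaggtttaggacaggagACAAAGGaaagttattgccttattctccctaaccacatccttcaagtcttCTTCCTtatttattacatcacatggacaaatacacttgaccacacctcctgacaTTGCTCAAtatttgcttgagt
PRSS35: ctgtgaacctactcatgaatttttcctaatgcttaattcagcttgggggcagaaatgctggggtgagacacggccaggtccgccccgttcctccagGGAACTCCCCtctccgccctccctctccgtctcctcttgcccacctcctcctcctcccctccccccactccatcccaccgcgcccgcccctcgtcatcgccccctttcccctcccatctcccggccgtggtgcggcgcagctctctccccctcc
SERPINB1: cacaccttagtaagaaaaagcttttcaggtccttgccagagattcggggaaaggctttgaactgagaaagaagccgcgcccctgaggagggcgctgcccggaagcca
The TCN1 stretch held a C/EBP match beginning 109 bases before the RefSeq start, an ETS match at 163 and a SOX match at 213 bases. Such matches occurred in 9.05%, 28.7% and 4.45% of all 35116 promoters in windows of the same length. The PRSS35 stretch held 1 NF-kB match, on the minus strand at 154 bases, a motif found in 5.67% of all promoters. SERPINB1 and WFDC2 held none of the 8 motifs, and MUC1 held a TATA box (10.7% of all promoters) and an ETS match. AP-1 (6.57% of all promoters), KLF (6.63%) and FOX (2.98%) letters occurred in none of the 5. A match describes letters only.

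Some members lie near each other in the genome (positions on GRCh38). PI3 (chromosome 20, 45174876 to 45176544, plus strand), SLPI (45252239 to 45254564, minus strand) and WFDC2 (45469706 to 45481532, plus strand) share the WAP gene cluster. PI3 and SLPI are 75.7 kb apart, and PI3 was the nearest tested gene to SLPI on its left. On the other side of SLPI the nearest tested gene was SDC4, the cell-surface proteoglycan syndecan-4, 70.7 kb away, which fell to 18.3 and 19.4 FPKM in KO, against 59.3 and 50.7 FPKM in WT (limma adjusted p = 0.0045). Left of PI3, the kinase gene STK4 stood at 6.79 and 6.70 FPKM in KO and 9.35 and 9.47 FPKM in WT (adjusted p = 0.0607). Beside WFDC2, PIGT, which attaches lipid anchors to proteins, stood at 6.69 and 6.07 FPKM in KO and 6.80 and 6.23 FPKM in WT. SYS1, a Golgi protein gene between SDC4 and WFDC2 that was picked out after its values were seen, stood at 3.92 and 2.78 FPKM in KO and 6.04 and 5.17 FPKM in WT (adjusted p = 0.0619), and an annotated readthrough with DBNDD2 makes its count uncertain. Of the 5 tested genes from PI3 to WFDC2, PI3 and SLPI included, 4 had both KO libraries below both WT libraries, 3 were called lower, and for PIGT the groups overlapped. Among all tested genes 31.3% lay below in this way and 11.1% were called lower. PI3 was used to choose the set and SLPI is a member, so nothing is read from this count.

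MUC5AC (chromosome 11, 1157953 to 1201138) and MUC5B (1223066 to 1262172) lie 21.9 kb apart on the plus strand, and both were lower in KO. Next to MUC5B, TOLLIP, an adaptor of Toll-like receptor signalling, stood at 10.1 and 10.8 FPKM in KO and 11.4 and 11.03 FPKM in WT. TCN1 (59852800 to 59866575, minus strand) is on the same chromosome, far from the mucins. SERPINB1 (chromosome 6, 2832332 to 2842006, minus strand) lies 45.3 kb from SERPINB9, an inhibitor of granzyme B. SERPINB9 rose to 6.09 and 5.54 FPKM in KO, against 2.54 and 3.11 FPKM in WT (limma adjusted p = 0.0159). This call was lost without WT replicate 1, WT replicate 2 or KO replicate 1 (adjusted p = 0.126, 0.06 and 0.0516). PRSS35 (chromosome 6, 83512538 to 83525704, plus strand) has ME1, the cytosolic malic enzyme, 81.5 kb away, which fell to 54.7 and 40.7 FPKM in KO, against 99.3 and 94.2 FPKM in WT (limma adjusted p = 0.0179). On the other side of PRSS35, CYB5R4, 334 kb away, stood at 4.49 and 3.03 FPKM in KO and 2.35 and 2.25 FPKM in WT (limma adjusted p = 0.107). The ME1 call was lost without WT replicate 1 (adjusted p = 0.103) or WT replicate 2 (adjusted p = 0.0765). WFDC21P (chromosome 17, 60083566 to 60091885, minus strand) lies 4.63 kb from HEATR6, at 7.82 and 6.31 FPKM in KO and 11.2 and 9.52 FPKM in WT (adjusted p = 0.079). MUC1 lies on chromosome 1, 155185824 to 155192916, on the minus strand.

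Other products of airway secretory cells were mostly low. Of 28 listed, 20 stayed below 1 FPKM in every library. Of the 8 tested, 5 fell in KO and 0 rose, with a median log2 change of -1.06 beside 0.03 over all tested genes. At an unadjusted p under 0.05 the same numbers were 5 and 1, and with voom 5 and 1. The gene that rose in both was AGR2, at 31.5 and 34.5 FPKM in KO and 16.8 and 25.004 FPKM in WT. Of all tested genes 11.1% were called lower and 12.1% higher (limma), shares that also stand beside the lists below. Of the airway products, 2 passed the filter through WT alone and both fell, a route on which 62.5% of genes were called lower. The median of -1.06 includes these 2. Of the 6 measured in both groups, 3 fell and 0 rose (limma). Their log2 changes were -4.13 (LCN2), -1.84 (CEACAM6), -1.04 (FCGBP), -0.25 (CYP2F1), -0.03 (VMO1) and 0.66 (AGR2). The list was chosen with earlier results of these data known. LCN2, which sequesters bacterial siderophores, fell to 3.36 and 5.08 FPKM in KO, against 78.4 and 101 FPKM in WT. CEACAM6, an adhesion molecule of epithelia and granulocytes, fell to 10.98 and 9.94 FPKM in KO, against 35.7 and 44.6 FPKM in WT (limma adjusted p = 0.00405). FCGBP, a mucus protein, fell to 2.57 and 2.56 FPKM in KO, against 6.62 and 6.01 FPKM in WT (adjusted p = 0.00744, 0.0576 without WT replicate 1). CEACAM5 and the mucus-associated peptide TFF1 passed the filter through WT alone, with 1 and 2 reads of CEACAM5 in KO against 71 and 64 in WT. TFF1 had 0 and 1 reads in KO against 14 and 10 in WT, and its call was lost without WT replicate 1 (adjusted p = 0.0525). CEACAM5 and CEACAM6 are similar in sequence, so their counts are uncertain.

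Of 27 other protease inhibitors listed, 12 were tested, of which 7 fell and 1, SERPINB9, rose, with a median log2 change of -1.04. All 7 that fell had passed the filter through WT alone, and this median includes them. The log2 changes of the 5 inhibitors measured in both groups were -0.48 (SPINT2), -0.44 (CST3), -0.13 (SERPINB6), 0.18 (CSTB) and 0.84 (SERPINB9). Of these 5, 0 fell (limma), 1 at an unadjusted p under 0.05 and 0 with voom. That 1 was CST3, a secreted cystatin, which was past the threshold as lower with quantile normalization (adjusted p = 0.047) and with the replicate number as a block (adjusted p = 0.0341). CSTA, an inhibitor of cysteine cathepsins, had 1 read in each KO library against 39 and 53 reads in WT. SPINT1, the epithelial inhibitor of membrane serine proteases, fell to 0.258 and 0.241 FPKM in KO, against 2.38 and 2.50 FPKM in WT (limma adjusted p = 0.00539). SERPINA1, the circulating elastase inhibitor α1-antitrypsin, had 4 and 8 reads in KO against 143 and 136 in WT. SERPINB7 had 0 and 1 reads in KO against 85 and 51 in WT. CST1, a salivary cystatin with close copies in the genome, had 1 and 0 reads in KO against 26 and 16 in WT. SPINK6, an inhibitor of kallikreins, had 0 reads in both KO libraries against 18 and 14 in WT, at least 5.03-fold lower. These 6 inhibitors were minor transcripts in WT, the highest being SPINT1 with a mean of 2.44 ± 0.0817 FPKM (SD, n = 2).

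Among 29 serine proteases listed, 8 were tested, of which 2 rose and 2 fell. PRSS23, a secreted protease, rose to 45.9 and 48.3 FPKM in KO, against 13.8 and 17.3 FPKM in WT (limma adjusted p = 0.005), opposite in direction to PRSS35. PRSS3, a trypsinogen with near-identical copies, fell to 2.44 and 3.26 FPKM in KO, against 11.9 and 8.69 FPKM in WT (adjusted p = 0.00761). PRSS12, neurotrypsin, fell to 0.189 and 0.171 FPKM in KO, against 2.02 and 2.31 FPKM in WT (adjusted p = 0.00622), having passed the filter through WT alone. ELANE, neutrophil elastase, the protease that PI3, SLPI and SERPINB1 inhibit, had 23 and 31 reads in KO against 12 and 8 in WT. It passed the filter through KO alone and was at the edge of the threshold as higher in KO (limma adjusted p = 0.0499). That call was lost without each of the libraries in turn (WT replicate 1, WT replicate 2, KO replicate 1 and KO replicate 2, adjusted p = 0.122, 0.182, 0.0586 and 0.15).

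Vitamin B12 enters cells bound to carriers related to TCN1 and is then routed to mitochondrial and cytosolic enzymes. Of the 16 other genes of B12 transport and use listed, 11 were tested, and 0 rose and 0 fell (limma), 0 and 1 at an unadjusted p under 0.05 and 0 and 0 with voom. The most abundant were ABCC1, an exporter that also carries B12, at 69.6 and 63.1 FPKM in KO and 51.7 and 53.1 FPKM in WT, and MMADHC, which routes B12 inside the cell, at 35.8 and 30.3 FPKM in KO and 27.6 and 25.8 FPKM in WT. These misses of the threshold do not show that the genes were alike in both groups.

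Of 20 transcription factors of airway and other epithelia, 12 were tested, of which 3 fell and 2 rose, with a median log2 change of 0.02. At an unadjusted p under 0.05 these numbers were 4 and 3, and with voom 3 and 3. SOX9, a factor of airway progenitors, fell to 13.97 and 12.3 FPKM in KO, against 38.8 and 39.7 FPKM in WT (limma adjusted p = 0.00414). FOXA3, which drives goblet cell genes, fell to 1.15 and 1.56 FPKM in KO, against 3.90 and 3.87 FPKM in WT (adjusted p = 0.0108, 0.054 without WT replicate 1). GRHL3, which passed the filter through WT alone, fell to 0.478 and 0.325 FPKM in KO, against 1.67 and 2.12 FPKM in WT (adjusted p = 0.0151, 0.0643 without WT replicate 2). The goblet cell marker SPDEF, also in this list, stood at 6.47 and 7.59 FPKM in KO and 2.89 and 4.97 FPKM in WT. SPDEF stood higher in KO but was not past the threshold (limma adjusted p = 0.0737). FOXA2 rose to 23.6 and 27.5 FPKM in KO, against 17.1 and 16.2 FPKM in WT (adjusted p = 0.0385). Its call was lost without WT replicate 1, WT replicate 2 or KO replicate 2 (adjusted p = 0.201, 0.235 and 0.0802). TP63, the basal cell factor, passed the filter through KO alone and rose to 2.08 and 1.91 FPKM in KO, against 0.669 and 0.720 FPKM in WT (adjusted p = 0.0198), and its call was lost without WT replicate 1, WT replicate 2, KO replicate 1 or KO replicate 2 (adjusted p = 0.0967, 0.0788, 0.0643 and 0.0511).

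**Figure D3:**
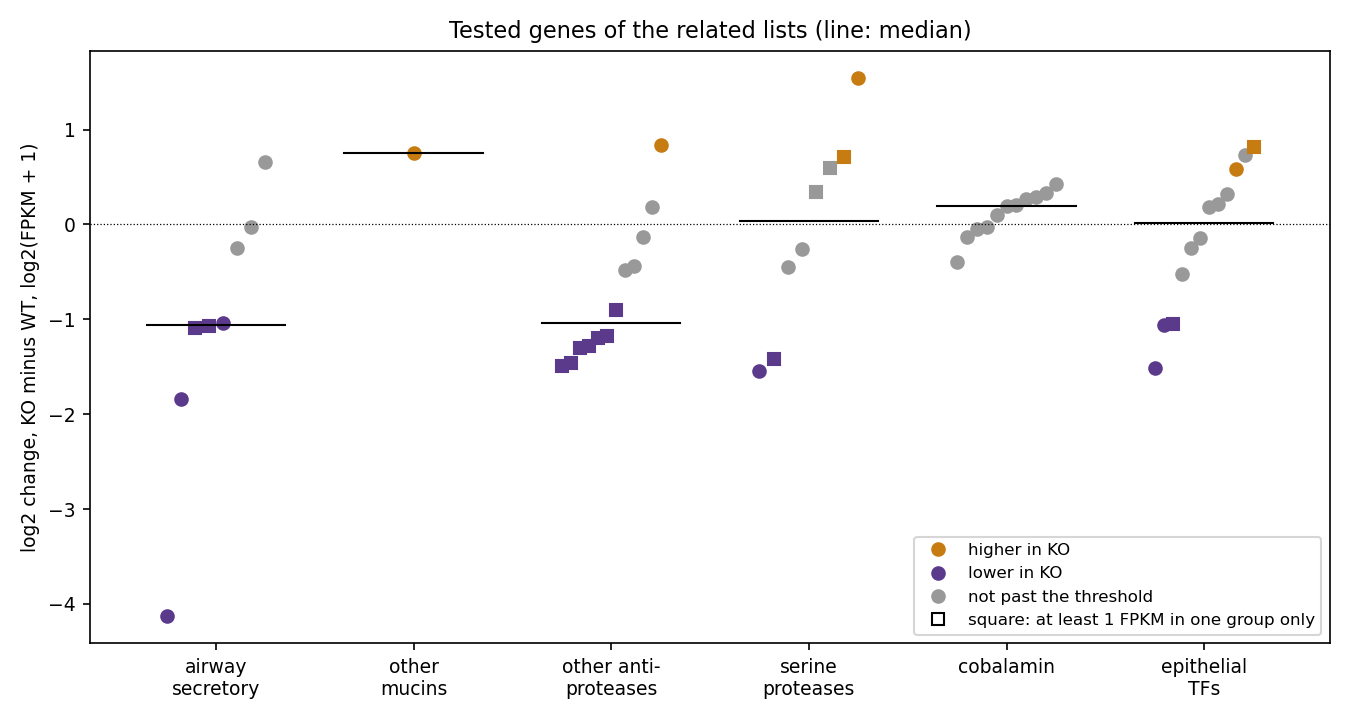
Log2 change (KO minus WT, log2(FPKM + 1) scale) of each tested gene in the 6 related lists that had one, with black lines at list medians and squares for genes that reached 1 FPKM in one group only. All 7 inhibitors that fell are squares, and the 11 tested B12 genes lie near 0 and grey.

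By distance between centred log2(FPKM + 1) values over the 4 libraries, the protein-coding genes outside these lists most like TCN1, of 11429 compared, were SGPP2, LAMB3 and CSF2. SGPP2, a sphingosine-1-phosphate phosphatase, lay at a distance of 0.10, with 0.993 and 1.10 FPKM in KO and 12.7 and 12.5 FPKM in WT. LAMB3, a laminin chain, lay at 0.11, and the cytokine gene CSF2 at 0.13. CSF2 passed the filter through WT alone, with 0 reads in both KO libraries against 6.27 and 5.74 FPKM in WT, at least 25.8-fold lower. Most like PI3 were CHGB, a granin of secretory granules, at 0.32, LYNX1 at 0.34 and TNFSF14, a cytokine of the TNF family, at 0.39. TNFSF14 also passed through WT alone, with 13 and 22 reads in KO against 401 and 423 in WT. CHGB stood at 1.64 and 2.36 FPKM in KO and 13.6 and 17.5 FPKM in WT, higher in replicate 2 of both groups. These distances rest on 4 libraries and describe likeness of change on the log2(FPKM + 1) scale only. On that scale genes with unlike folds can lie close, because of the added 1.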

How the data were processed

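RNA of HFL1 cells was measured in 2 KO and 2 WT libraries. Paired-end reads were aligned with HISAT2 2.0.5, per the labels' protocols, and the submitters' processing notes name hg38 and mm10. The authors deposited a single table of FPKM values with a column for each library. How reads were counted or libraries scaled is not stated in the sources at hand. FPKM times gene length was a whole multiple of 1 step per library for 100% of values (tolerance 0.01), so whole reads were recovered for depth, floors (3 reads per library) and intervals. The median-of-ratios factor was 1.0046 in every library, so the deposited values were already on a common median-of-ratios scale.

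The log2 of FPKM + 1 was fitted with limma 3.58.1 (R 4.3.3) and an intensity-dependent prior, without a replicate block, over genes with at least 1 FPKM in at least 2 libraries (14100 genes), and p-values were adjusted over all of them (Benjamini-Hochberg, 0.05). An exact permutation test of 2 against 2 libraries cannot give a p below 0.333. The fit was tested on simulated data, in which the share of false calls exceeded the nominal level. Unless stated otherwise, folds are ratios of mean FPKM.

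The members, the 7 related gene lists and the markers were chosen with earlier results of these data known. Named were all members and up to 6 called genes of each list by size (the 2 most abundant where fewer than 2 were called). The airway products and other inhibitors measured in both groups were named too. Also named were CALU, markers, the 3 genes most like TCN1 and PI3, and some of the nearest tested genes beside a member. PIGT, TOLLIP and HEATR6 are such neighbours. The neighbours MRPL16, CCDC86, DNTTIP1, AC025048.6, TRIM46, THBS3, AP2A2 and WRNIP1 were left out above, and none of them was called. Genes with overlapping annotations or close copies are uncertain, since strand use in counting is not given. Coordinates are those of the deposited table, whose chromosome, start, end and strand equalled the GENCODE annotation of GRCh38 for all 10 members and for 58653 of 58735 genes.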

Additional observations from a re-analysis of the deposited data

How the results depend on the processing

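The processing changed the counts of genes called. No member and no listed gene past the threshold reversed its direction under any alternative run. This is no independent check, because all runs use the same 4 libraries. Where the groups do not overlap, as for every called member, leaving out 1 library or changing the pseudocount cannot reverse a direction. Over all tested genes limma called 1711 higher and 1572 lower in KO. With no filter on low values these were 183 and 193, with 2 airway secretory products lower, 0 other inhibitors lower and 0 higher, 0 epithelial factors higher and 1 lower, 0 mucins higher, and 1 serine protease higher and 0 lower. PI3, SLPI, MUC5AC and MUC5B lost their calls in that fit, which covers 32306 genes. With quantile normalization and with the replicate block, 8 and 9 other inhibitors were lower, CST3 among them. MUC5AC also lost its call with quantile normalization (log2 change -0.70). The serine proteases called higher fell to 1 on changing the pseudocount to 0.1 or 0.5, on scaling libraries by their total reads and with voom. With voom, chosen after seeing the data, 1 airway secretory product was higher, and SERPINB1 was past the threshold (log2 change 0.46). Leaving out each library in turn gave 505 to 1321 genes higher and 537 to 1260 lower, 3 to 5 airway secretory products lower, 0 to 1 other inhibitors higher, 0 to 1 epithelial factors higher, 0 to 1 mucins higher and 1 serine protease higher each time. The cause of these moves was not tested.

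With the replicate number as a block, 2968 genes were higher and 2577 lower, with 1 airway secretory product and 1 B12 gene higher, and SERPINB1 was past the threshold. The numbers are not stated to pair the samples. The differences KO replicate 1 minus KO replicate 2 and WT replicate 1 minus WT replicate 2 correlated at r = 0.411 across 14100 genes, which are not independent replicates. EdgeR and DESeq2, listed as alternatives, were not run, and voom on the recovered reads was run in their place. At 16173899 to 17715774 reads per library, WFDC2 and the KO levels of PI3, PRSS35 and MUC5AC are limited by counting.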
